A study of Homo sapiens with 6 samples.

Results

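HNRNPU and its paralogues HNRNPUL1 and HNRNPUL2 are the genes described here, through every eCLIP peak whose midpoint lies inside them on their own strand. They held 15 of the 3930 peaks in the 2 deposited lists, 11 in HNRNPU, 2 in HNRNPUL1 and 2 in HNRNPUL2, and all 15 came from the SF3B4 list. That list makes up 3660 of the 3930 peaks. The genes were chosen from these lists, so their peak numbers and bound shares describe them and carry no test.

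The series used HEK293T cells, a human embryonic kidney line with the SV40 large T antigen, and eCLIP, which recovers RNA fragments bound to an immunoprecipitated protein and sets them against input RNA. There were 6 libraries, 2 each for G4PID, an artificial biotin ligase aimed at G-quadruplexes and recovered through its HA tag, for SF3B4, recovered with its own antibody, and for input without antibody. The protocol text, which all 6 libraries share, describes plasmid transfection of G4PID or of the untargeted ligase miniTurboID, 24 h of culture and 30 min with 500 µM biotin. The labels leave out which of these plasmids, if any, the SF3B4 and input cells carried, and whether the 2 libraries of a group were separate cultures. Each antibody has 1 peak list without values per library, so depth is unknown, no spread between replicates can be given, and the identity of the cell line could not be checked from expressed genes.

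HNRNPU, also called scaffold attachment factor A, is an abundant nuclear protein that binds DNA through an N-terminal SAP domain and RNA through a C-terminal RGG region, and it has been linked to chromatin organisation, alternative splicing and maturation of the U2 small nuclear ribonucleoprotein. HNRNPUL1, found as a partner of an adenoviral protein and also named E1B-AP5, and HNRNPUL2 share its domain plan and have been linked to the DNA damage response. SF3B4 belongs to the SF3b complex of the U2 particle and contacts pre-mRNA just upstream of the branch point, close to the 3' end of an intron. The 3' end of an intron is called the acceptor below, and its 5' end the donor.

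The sequences at these acceptors show where the SF3B4 peaks sat. The lines give the intron up to its last base, from 5' to 3', with bases inside an SF3B4 peak in capitals. They come from GENCODE release 29 transcripts on GRCh38 that cover the intron. The ends of 6 HNRNPU introns with a peak at the acceptor are shown first because they hold 6 of the 11 peaks of the gene.
HNRNPU intron 3, chr1:244860475-244860554, minus strand: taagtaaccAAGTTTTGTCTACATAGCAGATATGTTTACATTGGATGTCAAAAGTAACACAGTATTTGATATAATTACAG
HNRNPU intron 6, chr1:244858275-244858354, minus strand: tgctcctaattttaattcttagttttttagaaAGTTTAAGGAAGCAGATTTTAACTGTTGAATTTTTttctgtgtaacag
HNRNPU intron 7, chr1:244857718-244857797, minus strand: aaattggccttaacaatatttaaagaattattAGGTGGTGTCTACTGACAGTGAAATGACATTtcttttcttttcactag
HNRNPU intron 10, chr1:244856159-244856238, minus strand: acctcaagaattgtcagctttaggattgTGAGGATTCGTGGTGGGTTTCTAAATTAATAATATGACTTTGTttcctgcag
HNRNPU intron 11, chr1:244855609-244855688, minus strand: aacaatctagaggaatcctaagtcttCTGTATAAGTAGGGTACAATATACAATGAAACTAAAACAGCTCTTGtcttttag
HNRNPU intron 13, chr1:244854504-244854583, minus strand: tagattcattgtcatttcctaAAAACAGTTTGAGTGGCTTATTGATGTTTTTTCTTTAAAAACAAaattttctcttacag
In 5 of these 6 introns the peak ended before the terminal AG and left the last bases of the intron uncovered, while in intron 3 it ran through the AG into exon 4.

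The ends of 4 HNRNPU introns without a peak are shown for comparison, all in lower case.
HNRNPU intron 2, chr1:244862535-244862614, minus strand: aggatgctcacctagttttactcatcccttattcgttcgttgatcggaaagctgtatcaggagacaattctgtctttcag
HNRNPU intron 5, chr1:244858842-244858921, minus strand: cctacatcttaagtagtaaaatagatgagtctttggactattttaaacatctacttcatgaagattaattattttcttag
HNRNPU intron 8, chr1:244856857-244856936, minus strand: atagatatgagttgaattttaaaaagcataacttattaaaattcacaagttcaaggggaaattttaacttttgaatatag
HNRNPU intron 12, chr1:244855045-244855124, minus strand: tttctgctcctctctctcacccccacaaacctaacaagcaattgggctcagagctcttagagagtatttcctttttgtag
Each of them also ended in AG, as did every one of the 15 acceptors of the 3 genes whose last 50 nt were known.

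A paralogue intron from each of the other genes completes the set, chosen because the sequence of its end was known and carried a peak. The HNRNPUL1 stretch was lengthened to 110 nt, against 80 nt for the others, so that it holds the whole peak.
HNRNPUL1 intron 1, chr19:41268113-41268222, plus strand: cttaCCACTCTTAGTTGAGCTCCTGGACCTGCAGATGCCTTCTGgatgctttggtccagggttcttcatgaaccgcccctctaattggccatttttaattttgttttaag
HNRNPUL2 intron 3, chr11:62723727-62723806, minus strand: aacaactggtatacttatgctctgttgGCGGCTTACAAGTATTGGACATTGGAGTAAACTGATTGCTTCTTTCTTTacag
The HNRNPUL1 peak lay farther from the acceptor than the HNRNPUL2 peak, whose last base was 5 nt before the first exon base.

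HNRNPU (ENSG00000153187.19, chromosome 1, 244840638 to 244864560, minus strand) carried an SF3B4 peak at 9 of the 13 introns of its principal transcript, ENST00000444376.7. An intron counted as bound when a peak midpoint lay inside it or up to 50 nt past its acceptor. The share was 69.2% (95% Wilson interval 42.4 to 87.3%, counting error only). Introns 1, 3, 4, 6, 7, 9, 10, 11 and 13 were bound, and introns 2, 5, 8 and 12 were not. Over all protein-coding genes with an SF3B4 peak, 11.8% of introns were bound, and over all protein-coding genes 1.76% were. HNRNPUL1 (ENSG00000105323.16, chromosome 19, 41262496 to 41307598, plus strand) was bound at introns 1 and 9 of 14 (14.3%, Wilson interval 4.01 to 39.9%). HNRNPUL2 (ENSG00000214753.3, chromosome 11, 62712630 to 62727472, minus strand) was bound at introns 2 and 3 of 13 (15.4%, Wilson interval 4.33 to 42.2%). With the stricter count of midpoints 10 to 60 nt upstream of the acceptor, 8 of 13 HNRNPU introns (61.5%), 1 of 14 HNRNPUL1 introns and 2 of 13 HNRNPUL2 introns were bound, against 8.73% over genes with a peak. The lists hold peaks over a threshold only, so an intron without a peak is not shown to lack SF3B4, and RNA amount was not measured.

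**Figure D1:**
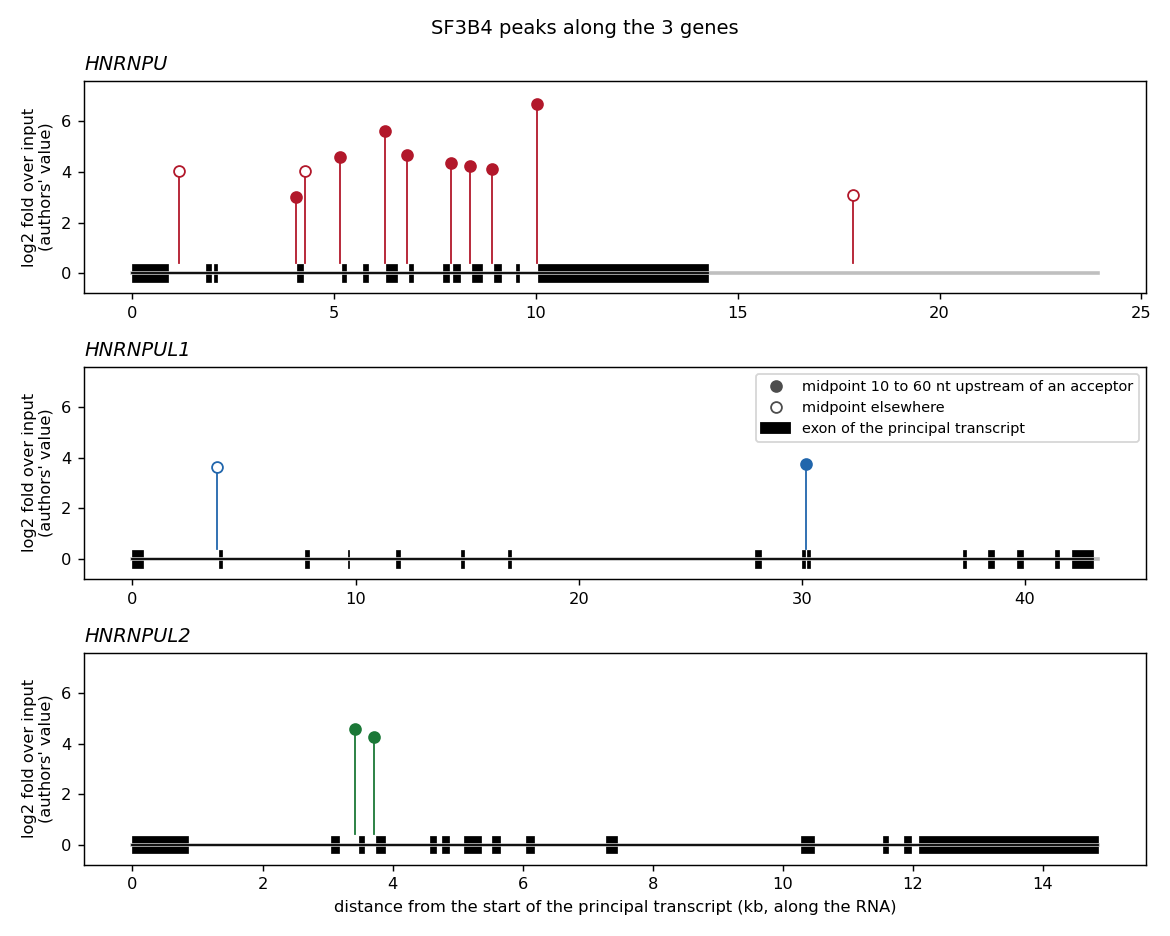
SF3B4 peaks of the 3 genes, plotted by distance of the midpoint from the start of the principal transcript (kb) and by the authors' log2 fold over input. Black boxes are exons, and the grey line is the annotated gene downstream of the principal transcript. Any part of the gene upstream of its start is not drawn. Filled points have their midpoint 10 to 60 nt upstream of an acceptor, and 8 of the 11 HNRNPU points are filled.

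Along HNRNPU, the 8 peaks in that stretch had midpoints between 25 and 38 nt before the first base of the next exon. The peak at intron 3 lay 25 nt upstream, with the authors' log2 fold over input at 3.01 and their -log10 p at 27.2. That was the lowest fold of the 11 HNRNPU peaks and the highest -log10 p. The midpoint also lay in exons of 9 other annotated HNRNPU transcripts, of coding, nonsense-mediated decay and retained-intron types. For the other acceptor peaks this number was 0 to 4. The peak at the acceptor of intron 4 lay 33 nt upstream, with a log2 fold of 4.61 and a -log10 p of 12.4. At intron 6 the midpoint was 31 nt upstream, the log2 fold 5.64 and the -log10 p 13.7. At intron 7 it was 33 nt upstream, at a log2 fold of 4.66 and a -log10 p of 12.9. Intron 5, which had no listed peak, separates the first pair of these acceptors from the second.

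Introns 9, 10 and 11 followed each other and were all bound at nearly the same distance. The midpoints were 31, 31 and 32 nt upstream of the next exon, and the log2 folds were 4.34, 4.22 and 4.10. The highest value was at the last intron, number 13, before the exon that ends the coding sequence and holds the 3'UTR. Its peak (chromosome 1, 244854519 to 244854562) was 44 nt wide, lay 38 nt upstream, and had a log2 fold of 6.68, rank 11 of 3660 in the SF3B4 list. The second highest HNRNPU fold, 5.64 at intron 6, ranked 114. The -log10 p of 15.7 at introns 10 and 13 was shared by 300 peaks of the list, so it does not order them.

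The 3 other HNRNPU peaks lay away from the acceptors of the principal transcript. In intron 1 the midpoint was 271 nt past exon 1 and 673 nt before exon 2, with a log2 fold of 4.02, and no other annotated HNRNPU transcript had an exon there. In intron 4 a second peak, 29 nt wide, lay 59 nt past the end of exon 4, with a log2 fold of 4.05. It stood on the other side of exon 4 from the intron 3 peak. The last one, 131 nt wide with a log2 fold of 3.07, lay beyond the principal transcript, in a stretch that other annotated HNRNPU transcripts cover. Its midpoint was 4 nt past the first base of an exon of such a transcript, so this peak straddled an alternative acceptor. HNRNPU transcripts annotated as nonsense-mediated decay, processed or retained-intron forms covered that midpoint.

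The 4 paralogue peaks had log2 folds of 3.64 to 4.58, on both sides of the list's median of 3.93. In HNRNPUL1 the intron 1 peak (chromosome 19, 41268117 to 41268156) had a log2 fold of 3.64 and a -log10 p of 10.8 and lay 86 nt upstream of exon 2, within an exon of another annotated coding transcript. The intron 9 peak (41294502 to 41294534) had a log2 fold of 3.74 and a -log10 p of 6.12 and lay 40 nt upstream of exon 10, in an intron of 97 nt. In HNRNPUL2 the intron 2 peak (chromosome 11, 62724024 to 62724069) had a log2 fold of 4.58 and a -log10 p of 6.19 and lay 57 nt upstream of exon 3. The intron 3 peak (62723731 to 62723779) had a log2 fold of 4.24 and a -log10 p of 9.08 and lay 29 nt upstream of exon 4. Both HNRNPUL2 peaks also fall in the readthrough gene HNRNPUL2-BSCL2 on the same strand, so their reads cannot be assigned to one of the 2 genes. The median folds were 4.22 for HNRNPU, 3.69 for HNRNPUL1 and 4.41 for HNRNPUL2. Over the 3 genes 11 of 15 peaks lay 10 to 60 nt upstream of an acceptor, against 67.8% of the peaks in all protein-coding genes.

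The middle of the 3 genes keeps a common exon order, which allowed their introns to be set side by side. HNRNPU exons 3 to 10, HNRNPUL1 exons 4 to 11 and HNRNPUL2 exons 3 to 10 paired in order, with lengths within 9 nt of each other and 4 of the 8 exons exactly equal in all 3 genes. Nucleotide identity of the paired exons to HNRNPU was 60 to 73.4% for HNRNPUL1 and 57 to 69.0% for HNRNPUL2. Exon pairs of similar length that were not partners reached at most 60.5% and 62.5%, so the pairing rests on order and length as well as identity. Of the 8 introns before these exons, HNRNPU had a peak at 5, HNRNPUL1 at 1 and HNRNPUL2 at 2. The positions differed. The intron before the 140 nt exon was bound in HNRNPU (1986 nt long) and in HNRNPUL2 (187 nt) but had no peak in HNRNPUL1 (2103 nt). It was the only one of the 8 with a peak in more than 1 gene. Over all 10 positions paired in the 3 genes there were 2 such cases. The other was intron 1 before exon 2, bound in HNRNPU (943 nt) and in HNRNPUL1 (3424 nt) but not in HNRNPUL2 (2192 nt). There the peaks lay 673 nt upstream of exon 2 in HNRNPU and 86 nt upstream in HNRNPUL1, neither of them 10 to 60 nt upstream. Identity of exon 2 to HNRNPU was 56.9% in HNRNPUL1 and 56.6% in HNRNPUL2, below the 60.5% and 62.5% that pairs of non-partners reached. The intron before the 129 nt exon was bound in HNRNPUL1 alone (97 nt), where HNRNPU (741 nt) and HNRNPUL2 (396 nt) had no peak.

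**Figure D2:**
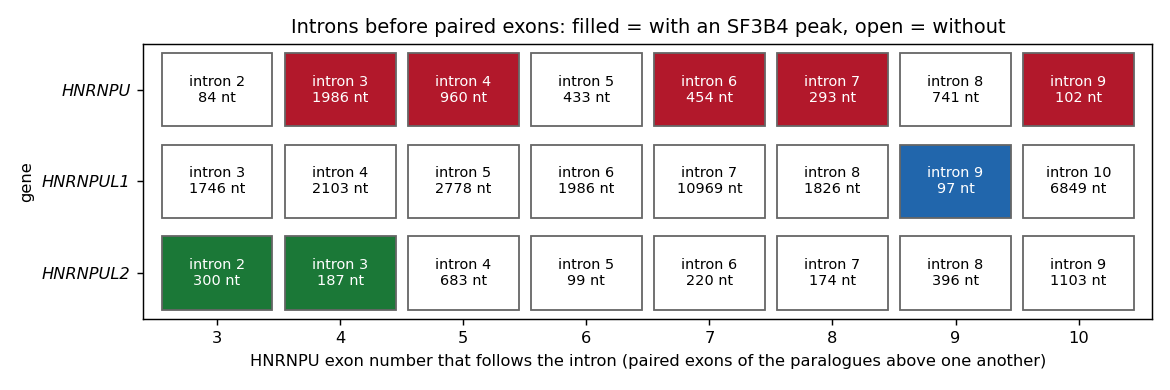
The 8 introns that precede paired exons in the 3 genes, with the intron number and length in nt in each box. Filled boxes have an SF3B4 peak, which is the case for 5 HNRNPU, 1 HNRNPUL1 and 2 HNRNPUL2 introns, and 1 column is filled in more than 1 gene.

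Bound and unbound introns of HNRNPU had overlapping lengths. The 9 bound ones ranged from 102 to 1986 nt with a median of 454 nt, and the 4 unbound ones from 84 to 741 nt with a median of 406 nt. This small difference turned around when the acceptor stretch alone was counted, at medians of 376 nt for 8 bound and 433 nt for 5 unbound introns. HNRNPUL1 had mostly longer introns, 97 and 3424 nt for the bound ones and 581 to 10969 nt (median 1906 nt) for the unbound. The bound HNRNPUL2 introns were 187 and 300 nt, and the 11 unbound ones 99 to 2833 nt (median 396 nt). In other genes with an SF3B4 peak the medians were 628 nt for 3194 bound introns and 866 nt for 24052 unbound ones. Among 1321 other genes with 8 or more introns and introns of both kinds, bound introns had the shorter median in 46.7%. Introns of 1 gene share its transcription and are not replicates, so no test was made.

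**Figure D3:**
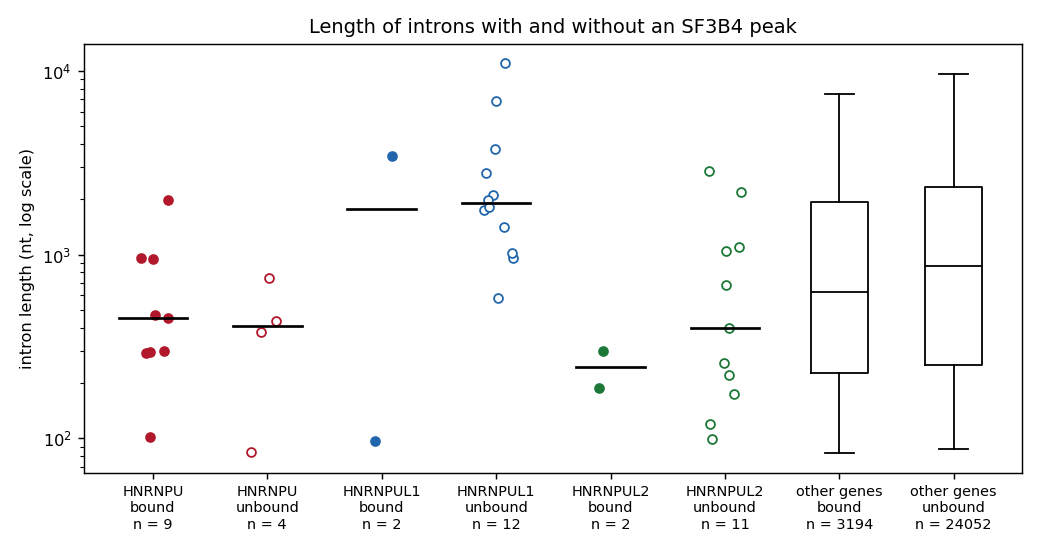
Intron length (nt, log scale) of introns with and without an SF3B4 peak in each gene, with a line at the median, and boxes for other genes with an SF3B4 peak (quartiles, whiskers at the 5th and 95th percentiles). Lengths of bound and unbound HNRNPU introns overlap, at medians of 454 and 406 nt.

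Introns of like length were also set side by side. Of the HNRNPU introns over 200 and up to 500 nt, 5 of 7 were bound, against 1 of 4 in HNRNPUL2 and 15.3% of 4797 such introns in the other genes. HNRNPUL1 had none of that length. For those over 500 and up to 1000 nt, 2 of 3 HNRNPU introns were bound, against 0 of 2 in HNRNPUL1, 0 of 1 in HNRNPUL2 and 11.6% of 4280 in the other genes.

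Annotated transcripts that keep an intron were frequent in HNRNPU. A further transcript covered the whole intron for 7 of its 9 bound and all 4 of its unbound introns, mostly of the retained-intron type, so this did not set bound introns apart. In HNRNPUL1 this held for 0 of 2 bound and 0 of 12 unbound introns, and in HNRNPUL2 for 1 of 2 bound and 0 of 11 unbound. In other genes with a peak it held for 24.7% of bound and 8.98% of unbound introns. HNRNPU has 31 annotated transcripts, 10 of them retained-intron forms, against 22 and 2 for HNRNPUL1 and 2 and 1 for HNRNPUL2. HNRNPU was highest in annotated forms and in bound introns, while HNRNPUL1 and HNRNPUL2 differed in forms at 2 bound introns each, and the part of the annotation in the result was not tested.

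The HNRNPU acceptors printed above are rich in A and T. G and C made up 29% of the last 50 nt at the median of 8 bound introns (26 to 42%) and 32% at that of 4 unbound ones (24 to 42%), so both kinds overlapped. In other genes with a peak the medians were 52% for 1453 bound and 54% for 4572 unbound introns with known sequence. Of 341 genes with 8 or more known acceptors, 10 had a lower median than HNRNPU. The share of bound introns in the other genes was 20.3% below 30% G and C and 21.8% at 60% or more, and lay between 24.8 and 27.2% in the bins between. Only introns whose end another transcript covers enter these shares.

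**Figure D4:**
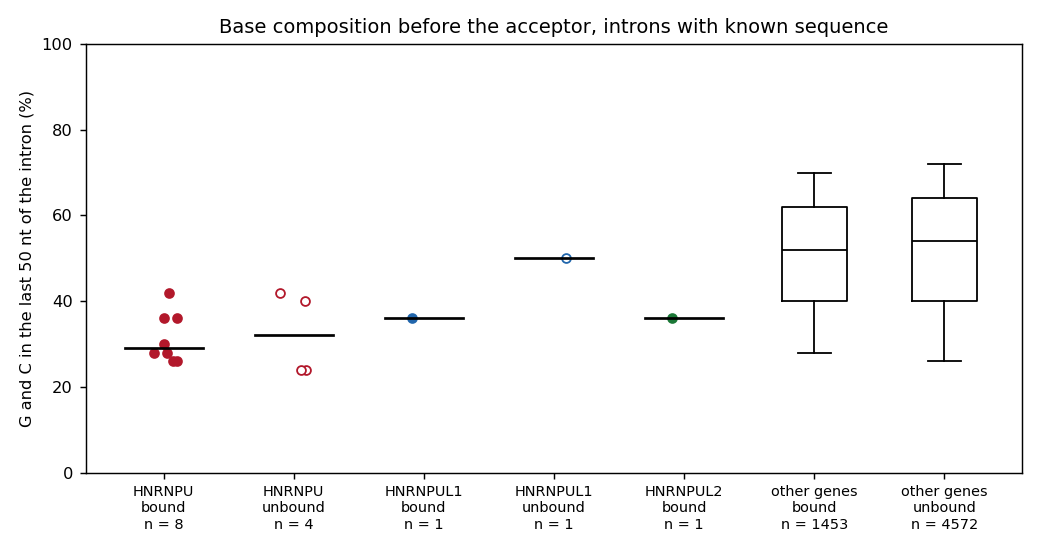
G and C content (%) of the last 50 nt of introns with known sequence, for bound and unbound introns of the 3 genes (points, line at the median) and of other genes with an SF3B4 peak (boxes, whiskers at the 5th and 95th percentiles). The HNRNPU medians of 29% and 32% lie below the 52% and 54% of the other genes.

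Pyrimidine content differed less from that of other genes. C and T made up 55% of the last 50 nt of bound and 52% of unbound HNRNPU introns at the median, against 60% of both kinds elsewhere. The longest run of C and T was 6.5 nt at the median in both kinds of HNRNPU intron and 8 nt elsewhere. Intron 7 had a run of 14 nt that began at the end of its peak, the longest of the 12 known. Branch points often resemble the letters CTNAC, which were searched with either pyrimidine at the first and at the last place on the sense strand of the last 50 nt. At least 1 match was present in 7 of 8 bound and 4 of 4 unbound HNRNPU introns, against 66.8% of bound and 66.2% of unbound introns elsewhere. In 6 of the 7 HNRNPU introns with an acceptor peak and a known end such a match lay inside the peak, and intron 11 held none. These peaks covered 31 to 71 of the last 80 nt, much of it within the 50 nt searched. An overlap was therefore likely in advance, and nothing is drawn from it. In HNRNPUL1 intron 1 there were 3 matches and 0 inside the peak, and in HNRNPUL2 intron 3 the peak held 2 of 3. Matches were present in most introns of either kind, and a match does not locate a branch point.

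The share of bound introns was also ranked over genes, as a description. Of 1324 protein-coding genes with 8 or more introns and at least 1 bound, 4 had a higher share and 1 the same. The genes nearest in this share were HNRNPH1, a G-tract binding hnRNP (9 of 13 introns, 69.2%), EIF4A2, a translation initiation helicase (7 of 10, 70.0%), DGCR8, a partner of Drosha in microRNA processing (10 of 13, 76.9%), HNRNPA1, a splicing regulator (7 of 9, 77.8%), and HNRNPA3 (5 of 9, 55.6%). RPL3 and TAZ had the same 5 of 9 introns bound as HNRNPA3, which was taken over them by alphabetical order only. Where 8 or more of their acceptors were known, HNRNPH1 and EIF4A2 both had 34% G and C at the median, against 29% in HNRNPU. HNRNPUL1 had 383 genes above its share and HNRNPUL2 had 350, of the same 1324.

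**Figure D5:**
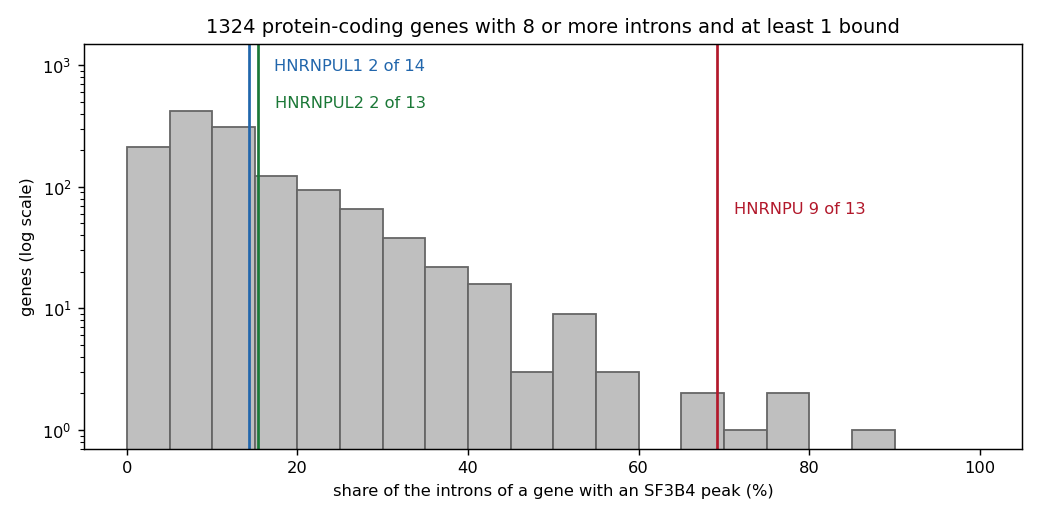
Number of genes (log scale) by the share of their introns with an SF3B4 peak (%), for 1324 protein-coding genes with 8 or more introns and at least 1 bound. Lines mark HNRNPU at 9 of 13, HNRNPUL1 at 2 of 14 and HNRNPUL2 at 2 of 13.

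Other hnRNP genes gave a wide range. Of 24 listed hnRNP genes besides these 3, 16 had an SF3B4 peak, against 9.15% of all protein-coding genes. Their highest log2 folds were in HNRNPH1 (7.13), HNRNPA1 (5.97), HNRNPA3 (5.88) and HNRNPA2B1 (5.87). Over the 18 of them with 8 or more introns, the share of bound introns had a median of 21.8% and a range of 0 to 77.8%, 1 gene lay above HNRNPU, and 4 had no bound intron. Of 22 listed genes for nuclear matrix or SAP-domain proteins, a mixed group, 8 had an SF3B4 peak, against the same 9.15%. MATR3, which encodes the nuclear matrix protein matrin 3, led them with a log2 fold of 5.17 and 4 of 14 introns bound. A further annotated gene entry named MATR3 had 5 of 17 introns bound. The 9.15% is over all 19381 annotated protein-coding genes, whether expressed in these cells or not. RNA amount was not measured, so these counts do not set either list apart from other expressed genes.

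G4PID gave no listed peak in HNRNPU, HNRNPUL1 or HNRNPUL2. Across all protein-coding genes 0.511% had one, so 0 of 3 is near the background, and in the hnRNP list PCBP2, a poly(C)-binding protein, was the 1 gene of 24 with a G4PID peak (log2 fold 6.07). Since the list holds only peaks above the authors' thresholds, binding below them is not addressed.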

How the data were processed

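The deposited data were 1 peak list per antibody without a header. The submitters' processing notes name cutadapt 3.4 and STAR 2.7.0d. Neither the peak caller, nor its filters, nor how replicates were joined is stated in the sources used here. The authors' first value per peak was read as a -log10 p-value and their second as a log2 fold over input, from the usual column order and the ranges (above 5 and above 3). Both are the authors' own values and only describe or rank peaks within a list. The notes name the builds hg19 and hg38. The deposited coordinates were read as hg38, where 67.8% of placed peaks fell 10 to 60 nt upstream of an annotated acceptor.

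Peaks were placed by midpoint and strand on GENCODE release 29. The principal transcript of a gene was its coding transcript with the best APPRIS level, then CCDS membership, support level and length. Intron sequence came from 206694 transcripts laid on the genome (0 disagreeing bases), so introns outside every transcript had no sequence. Of the 12 known HNRNPU intron ends, 10 are printed. Intron 1 is left out because its peak lies far from the acceptor, and the end of intron 4 is not reported here. Exons of paralogues were aligned globally, keeping order. No hypothesis test was made, because introns and peaks are not replicates. Intervals for shares are Wilson intervals at 95% and cover counting error alone. They treat the introns of a gene as independent draws, which they are not known to be.

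The members, the lists, the comparisons and the rule for named genes (the 3 members, the 5 genes nearest in bound share, and the leading members of 2 family lists) were chosen with earlier results of these data known. The exon pairing, G and C content, branch-point letters and quadruplex motif were added after values were seen. Computations used Python 3.11.15, numpy 2.4.6, scipy 1.17.1, Biopython 1.88 and matplotlib 3.10.9.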

Additional observations from a re-analysis of the deposited data

How the results depend on the processing

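Of 64 recomputed values, 50 stayed within limits, 8 moved and 6 turned around. The limits were 1.5 times the reported value for peak counts and length differences, the Wilson interval for shares, and 1 SD over the peaks of the gene for distances. These limits are wide for few introns or scattered peaks: they hold the HNRNPUL1 share at 33.3% (all basic coding transcripts) and at 7.14% (midpoints 10 to 60 nt upstream, or -log10 p of at least 10), against 14.3% reported, and the HNRNPU median distance at -14 nt from the downstream end of the peak, against -31 nt from its midpoint. HNRNPU kept 8 or 9 of 13 bound introns under the other rules for its principal transcript. The difference in median intron length, bound minus unbound, was 48 nt in HNRNPU. It was -57 nt with midpoints 10 to 60 nt upstream of the acceptor, with any overlap or at least 50% of the peak in the last 100 nt, and with log2 folds of at least 4, each of which drops 1 intron, and 82.5 nt with -log10 p of at least 10. In HNRNPUL1 the difference was -145.5 nt, and -1889 nt with midpoints 10 to 60 nt upstream, 1598 nt with -log10 p of at least 10 (1 bound intron in both cases), and 2746 nt over the introns of all basic coding transcripts, where 8 of 24 counted as bound. The gene holds 2 peaks, so several of these 8 introns share a peak and do not stand for more binding. The paralogues rest on 2 peaks each. HNRNPUL1 had 0 peaks and a bound share of 0% at log2 folds of at least 4, and 1 peak at -log10 p of at least 10, where HNRNPUL2 had 0 peaks and a share of 0%. With no bound intron left, the length difference could not be given for HNRNPUL1 at that fold or for HNRNPUL2 at that -log10 p. The HNRNPUL2 median distance to the acceptor of -43 nt became -19.5 nt when measured from the downstream end of the peak. The causes were not tested beyond the loss of introns, the shared peaks and the change of reference point on the peak named here. No paired analysis was possible because the lists hold no values per library, and for the same reason no library could be left out. Depth is unknown.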

Other observations

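Beside the 3 genes, the nearest G4PID peaks stood upstream of HNRNPUL1, in AXL, which encodes a receptor tyrosine kinase. They lay 914 and 2469 nt before the HNRNPUL1 start on the same strand, with log2 folds of 5.46 and 5.92. Downstream of HNRNPUL2 an SF3B4 peak lay 5287 nt past its end, in BSCL2, the gene for seipin, and in the readthrough gene.

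The spliced principal transcripts were also searched, on the sense strand, for a quadruplex motif: 4 G runs, each 3 or longer, separated by 1 to 7 nt. HNRNPU held none, HNRNPUL1 held 1 in exon 1 before the coding sequence, and HNRNPUL2 held 3 in exon 14 after it. Of 19352 principal transcripts of protein-coding genes 24.0% held the motif, and of 99 with a G4PID peak 37.4% did. The 4 motifs of the paralogues had no listed G4PID peak. Of the 4649 principal transcripts with the motif, 37 belonged to genes with such a peak, so this absence is near the background.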
